A study of Mus musculus with 4 samples.

Results

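Keratin-associated proteins are the matrix proteins of the hair shaft. They fill the space around the keratin filaments of the cortex and coat the cuticle, and they fall into a class rich in glycine and tyrosine and classes rich in cysteine, whose disulfide bonds harden the shaft. Their genes (Krtap) are small, mostly without introns, lie in clusters and are transcribed late in the differentiation of shaft cells, after the hair keratins have begun to be made. The genes described here were selected by symbol, from probe sets annotated to exactly 1 gene whose symbol is Krtap followed by a number, which gave 43 probe sets for 38 genes among the 45037 probe sets of the array. Subfamilies 6, 7, 8, 16, 19, 20, 21 and 22 were taken as high glycine-tyrosine, with 17 probe sets for 14 genes, and all others as sulfur-rich, with 26 probe sets for 24 genes. No probe set belonged to subfamily 20.

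The arrays measured RNA of cells sorted from the skin of FVB mouse pups at postnatal day 4, 24 h after doxycycline. Induced pups carried K14-rtTA, TRE-miR-203 and K14-H2BGFP. Control littermates, which the labels call WT, carried TRE-miR-203 and K14-H2BGFP but no K14-rtTA, so both groups carry the miR-203 transgene and the reporter, and the activator and miR-203 cannot be told apart. The K14 promoter is active in basal keratinocytes and the outer root sheath of the follicle, and the sources used here do not give the sorting gate. Nor do they state separately that the controls, labelled uninduced, received doxycycline. Each group had 2 arrays, which the labels call biological replicates, and so few arrays limit the precision of each value below. The arrays do not measure the mature microRNA, whose guide strand is given here with its seed, bases 2 to 8, in capitals, to show which microRNA was induced; it comes from RefSeq on GRCm38.p6, chr12:112130927-112130948, plus strand.
mmu-miR-203-3p: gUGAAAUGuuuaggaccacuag

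Array medians ran from 4.74 to 4.79 on the log2 scale. Induced replicate 1 stood apart in sex-linked transcripts. Its log2 value for Xist, the RNA of the inactive X chromosome, was 5.86 against 10.6 to 11.2 on the other 3 arrays, and its value for the Y-linked gene Eif2s3y was 9.38 against 2.52 to 2.82. Results are therefore given for each induced array. The labelled epidermal origin was checked with 6 keratinocyte markers, all of them measured, of which Krt5 and Krt14 had log2 values of 13.6 to 14.1 on every array.

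Because the Krtap genes were picked with the induced against control values of these arrays known, their differences are a description and carry no test. Over the whole table, limma called 0 of 27022 probe sets at an adjusted p under 0.05 (0%), with 2728 at an unadjusted p under 0.05, and 126 with a variance prior that follows signal and is robust to outliers. Each group is a bulk sample, in which more shaft cells and more Krtap RNA per shaft cell cannot be told apart. Probe sets of near-identical Krtap genes may also read each other's transcripts, so the genes are not independent measurements.

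Krtap transcripts of both classes were higher in the induced arrays, by nearly the same amount. Of the 43 probe sets 42 had a mean signal at or above the 40th percentile of all probe sets (log2 value 4.17) and were kept. The median difference, induced minus control, was 0.93 on the log2 scale (1.90-fold) over the 17 high glycine-tyrosine probe sets and 0.90 (1.86-fold) over the 25 kept sulfur-rich ones, against 0.00 over all kept probe sets. Both induced arrays lay above both controls for 17 of the 17 and 23 of the 25, where 20.9% of all kept probe sets did so; 0 of the 42 lay below both controls, against 18.2%. A difference of at least 1.5-fold was found for 15 of the 17 and 22 of the 25 (1.06% of all kept probe sets), and of at least 2-fold for 7 and 10 (0.226%). The 17 Krtap probe sets at 2-fold or more made up 40.5% of the kept Krtap probe sets and 27.9% of the 61 such probe sets in the table. Nothing is read from these shares, since the contrast was known when the genes were picked.

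**Figure D1:**
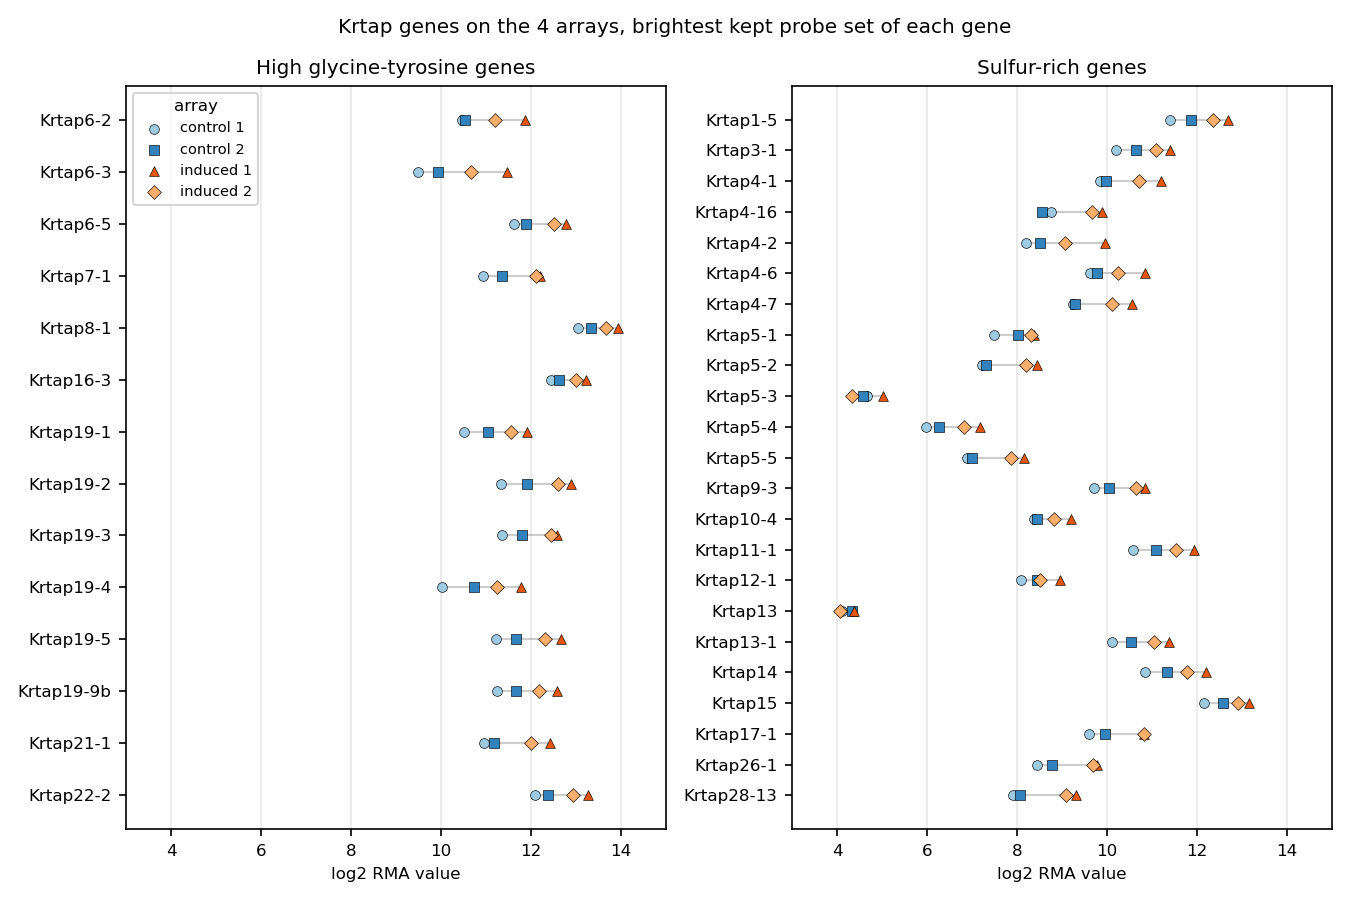
Log2 RMA value (horizontal axis) of each Krtap gene (rows, ordered by subfamily) on the 4 arrays, from its brightest kept probe set; grey lines span the 4 values and each symbol is 1 array. Both induced arrays lie to the right of both controls for every gene except Krtap13 and Krtap5-3.

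Both classes were compared array by array. Relative to the mean of the controls, the median high glycine-tyrosine probe set stood at -0.21 in control replicate 1, 0.21 in control replicate 2, 1.12 in induced replicate 1 and 0.76 in induced replicate 2. The median sulfur-rich probe set stood at -0.16, 0.16, 1.07 and 0.71 on the same arrays. The classes thus moved in parallel from array to array, replicates included. The mean of the high glycine-tyrosine probe sets exceeded that of the sulfur-rich ones by 1.97 and 2.07 in the controls, and by 2.14 and 2.08 after induction. This margin depends on the probes and does not compare RNA amounts between classes. The higher control margin and the lower induced margin nearly touch, and the change in this margin between groups was 0.09, with replicate SDs of 0.06 (controls) and 0.04 (induced). No p is given for the margin.

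**Figure D2:**
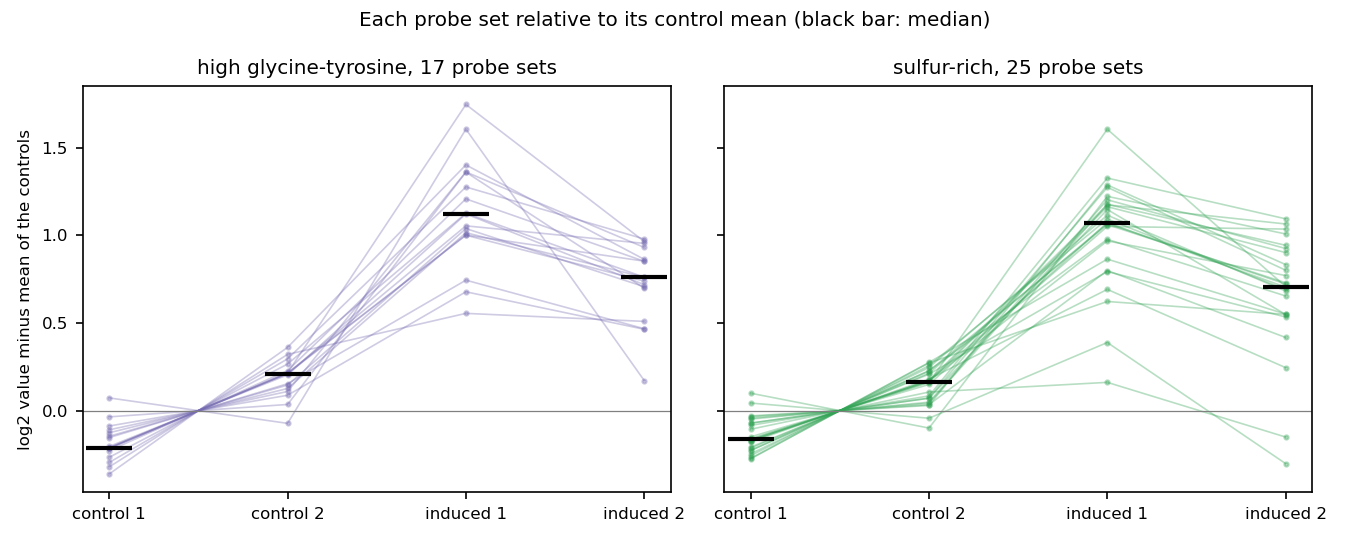
Log2 value minus the probe set's control mean (vertical axis) on each array (horizontal axis), with 1 line for each kept probe set and a black bar at the median; lines join the values of 1 probe set and imply no order of arrays. The medians of both classes run from about -0.2 in control replicate 1 to above 1 in induced replicate 1, with induced replicate 2 between 0.7 and 0.8.

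Replicates differed in the same sense for nearly all members. Induced replicate 1 was the highest array for 42 of 42 kept Krtap probe sets, against 6418 of all 27022 kept probe sets. It exceeded induced replicate 2 for the same 42, and in 47.7% of all kept probe sets. Probe sets shared by a Krtap gene and other genes, given below, did not all do so. Control replicate 1 was below control replicate 2 for 39 of 42, against 45.2% of all kept probe sets. The full order of control 1, control 2, induced 2 and induced 1, from low to high, held for 38 of 42 and for 5.30% of all kept probe sets. The exceptions were Krtap4-16, Krtap5-3, Krtap13 and the dimmer of the Krtap6-3 probe sets. Replicates differed by a median of 0.34 in the controls against 0.33 in the induced arrays, and the nearest arrays of opposite groups differed by a median of 0.54. For 26 of the 42 probe sets the distance between the nearest arrays of opposite groups was larger than the distance between either pair of replicates (7.19% of all kept probe sets, with the induced arrays higher), 12 of them high glycine-tyrosine and 14 sulfur-rich. For the other 16 the spread between replicates was at least as large as that distance. When induced replicate 1, which had Y-linked signal, was left out, the median differences were 0.76 for the high glycine-tyrosine class and 0.71 for the sulfur-rich class, and when induced replicate 2 was left out they were 1.12 and 1.07.

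The high glycine-tyrosine genes all lie on chromosome 16 in the RefSeq table of GRCm38, next to 6 of the sulfur-rich genes. Subfamily 6, small proteins of the shaft, held the largest difference of the class. The brighter Krtap6-3 probe set had log2 values of 9.50 and 9.93 in the controls against 11.46 and 10.68 in the induced arrays, a difference of 1.36 ± 0.28 (limma SE, n = 2 and 2; 2.56-fold). The groups did not overlap, but the induced arrays differed from each other by 0.78, more than the 0.75 that parted the nearest control and induced arrays. Its dimmer probe set differed by 0.89 ± 0.43 and read 4.59, 4.44, 6.12 and 4.69, so that most of this difference came from induced replicate 1. Krtap6-2 differed by 1.03 ± 0.22 and Krtap6-5 by 0.89 ± 0.14, the latter from values of 11.63 and 11.88 in the controls to 12.77 and 12.51 in the induced arrays.

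Subfamily 19 is the most numerous of the class, with 7 probe sets for 6 genes and differences of 0.53 to 1.13. Krtap19-2 had values of 11.33 and 11.92 in the controls against 12.90 and 12.60 in the induced arrays, a difference of 1.13 ± 0.22 (2.19-fold). Krtap19-4 differed by the same amount, 1.13 ± 0.28, from 10.01 and 10.73 to 11.78 and 11.24. Its control arrays were 0.72 apart, the widest control gap among the members, and its groups were 0.50 apart. Krtap19-1 was read by a pair of probe sets, the brighter at 0.94 ± 0.21 and the dimmer at 0.53 ± 0.21. Krtap19-3, Krtap19-5 and Krtap19-9b differed by 0.93 ± 0.16, 1.03 ± 0.19 and 0.92 ± 0.19.

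The remaining high glycine-tyrosine subfamilies had 1 gene each. Krtap21-1 read 10.95 and 11.17 in the controls against 12.42 and 11.99 in the induced arrays, a difference of 1.15 ± 0.17 (2.21-fold), and its groups were further apart (0.82) than either pair of replicates. Krtap7-1 read 10.94, 11.36, 12.21 and 12.11 in the same order and was 2.01-fold higher (SE of the log2 difference 0.16). Krtap22-2 read 12.08, 12.38, 13.27 and 12.94 and differed by 0.87 ± 0.16. In these 3 genes both induced arrays lay above both controls (20.9% of all kept probe sets), by margins of 0.56 or more. Among the brightest probe sets of each gene, the smallest differences of the class were those of Krtap8-1, with 13.04 and 13.35 in the controls against 13.94 and 13.66 in the induced arrays (0.61 ± 0.15, 1.52-fold), and of the brighter Krtap16-3 probe set, with 12.45 and 12.63 against 13.22 and 13.01 (0.57 ± 0.12, 1.49-fold). Both had mean log2 values above 12, and the dimmer Krtap16-3 probe set differed by 0.87 ± 0.17.

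Sulfur-rich genes lie on chromosome 11 (9 kept genes, median difference over probe sets 1.04), chromosome 16 (6 genes, 0.89), chromosome 7 (5 genes, 0.80), chromosome 10 (2 genes, 0.61) and chromosome 1 (1 gene, 1.21). All 9 kept genes on chromosome 11 were higher in both induced arrays (20.9% of all kept probe sets), with differences of 0.82 to 1.16. Subfamily 4, cysteine-rich proteins of the cortex, held 5 of them. Krtap4-2 differed by 1.16 ± 0.29 (2.23-fold), from 8.19 and 8.51 to 9.96 and 9.06, and its induced arrays were 0.90 apart. Krtap4-16 differed by 1.12 ± 0.13 (2.17-fold), from 8.76 and 8.56 to 9.88 and 9.67, with replicates within 0.21 of each other in both groups. Krtap4-1 read 9.84, 9.99, 11.19 and 10.72 (1.04 ± 0.17), Krtap4-7 differed by 1.06 ± 0.16 and Krtap4-6 by 0.85 ± 0.20.

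The other sulfur-rich genes of chromosome 11 belong to subfamilies found in the cortex (1, 3 and 9) and the cuticle (17). Krtap1-5 read 11.41 and 11.86 in the controls against 12.70 and 12.36 in the induced arrays (0.90 ± 0.19, 1.86-fold). Krtap3-1 read 10.20, 10.65, 11.40 and 11.08 (0.82 ± 0.19) and Krtap9-3 read 9.71, 10.05, 10.85 and 10.65 (0.87 ± 0.15). Krtap17-1 differed by 1.04 ± 0.14 (2.06-fold), and its induced arrays, at 10.83 and 10.81, were the closest pair among the members, against controls of 9.60 and 9.95. Both induced arrays lay above both controls for all 4 genes (20.9% of all kept probe sets), with margins from 0.43 for Krtap3-1 to 0.87 for Krtap17-1.

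Krtap28-13, the 1 member on chromosome 1, had the largest difference of the sulfur-rich class. It read 7.90 and 8.07 in the controls against 9.31 and 9.08 in the induced arrays, a difference of 1.21 ± 0.13 (2.32-fold). The groups were 1.01 apart, the widest separation of any member. Of the sulfur-rich genes on chromosome 16, Krtap26-1 read 8.44, 8.78, 9.79 and 9.68 (1.12 ± 0.14, 2.17-fold), Krtap11-1 read 10.58, 11.10, 11.93 and 11.53 (0.89 ± 0.21) and Krtap13-1 read 10.10, 10.53, 11.38 and 11.03 (0.90 ± 0.19). All of these had both induced arrays above both controls, as did 20.9% of all kept probe sets. Krtap14 and Krtap15, also known as Pmg1 and Pmg2, neighbour each other. Krtap14 read 10.84, 11.34, 12.21 and 11.77 (0.90 ± 0.21), and Krtap15 read 12.16, 12.57, 13.16 and 12.90 (0.66 ± 0.17, 1.58-fold).

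Subfamilies 5, 10 and 12 contain proteins of the hair cuticle. Krtap5-2 differed by 1.06 ± 0.12, Krtap5-5 by 1.06 ± 0.13 and Krtap5-4 by 0.89 ± 0.17. The brighter Krtap5-1 probe set read 7.48 and 8.02 in the controls against 8.37 and 8.30 in the induced arrays (0.59 ± 0.19), so that its controls were 0.54 apart and its groups 0.28. Its dimmer probe set differed by 0.71 ± 0.21. Krtap10-4 read 8.37, 8.44, 9.20 and 8.82 (0.61 ± 0.15). The brighter Krtap12-1 probe set had the smallest separation among separated genes, 0.07, with 8.09 and 8.45 in the controls against 8.96 and 8.52 in the induced arrays (0.47 ± 0.19), whereas the dimmer one read 7.02, 7.35, 8.35 and 8.09 (1.03 ± 0.15).

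A small number of members did not share the pattern. Krtap13 read 4.11 and 4.32 in the controls against 4.38 and 4.07 in the induced arrays (0.01 ± 0.14), and Krtap5-3 read 4.66, 4.58, 5.01 and 4.32 (0.04 ± 0.22). Both overlapped between groups. Both also had signal close to the filter level of 4.17. Krtap31-1, below the filter and so not counted, read 3.50, 3.33, 3.66 and 3.58. Its groups did not overlap, but were only 0.08 apart. A further 6 probe sets annotated to a Krtap gene together with other genes are not members. Of these, 5 were higher in both induced arrays (20.9% of all kept probe sets), with differences of 0.45 to 1.05 over all 6. Induced replicates 1 and 2 read 6.14 and 7.41 for Krtap4-13, whose controls read 6.27 and 6.38. They read 9.79 and 9.87 for Krtap9-1, and 4.64 and 4.65 for the dimmer probe set of Krtap3-2 and Krtap3-3. Induced replicate 1 was higher, as in the members, for the brighter one (9.47 and 9.25), Krtap2-4 (11.03 and 10.37) and Krtap6-1 (12.87 and 12.65).

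**Figure D3:**
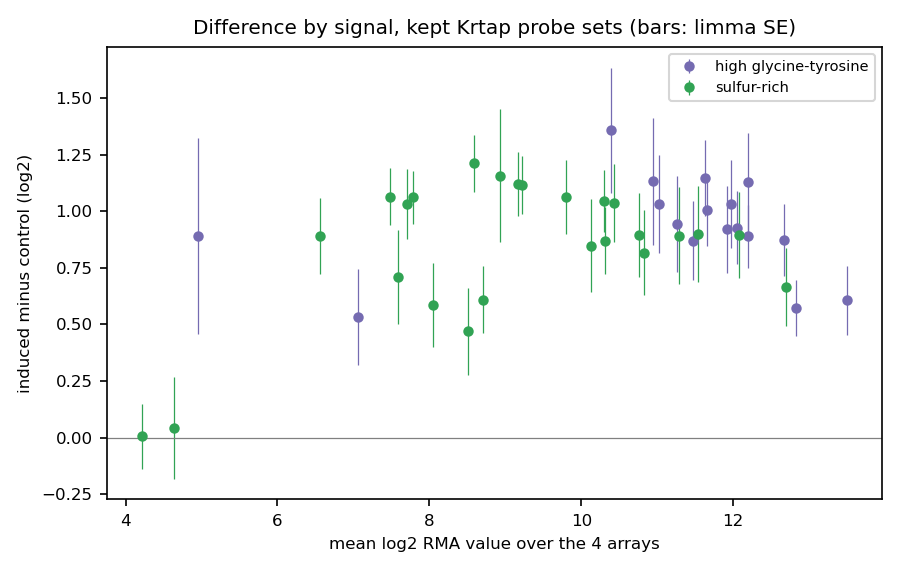
Induced minus control difference in log2 value (vertical axis, bars are the limma SE, 2 arrays in each group) against the mean log2 value over the 4 arrays (horizontal axis) for the 42 kept Krtap probe sets, coloured by class. The 2 probe sets near 0 are those of Krtap13 and Krtap5-3, at the dim end, and no probe set with a mean of 12 or more passes 1.13.

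The differences were also set against signal. The 6 high glycine-tyrosine probe sets with a mean log2 value of 12 or more had a median difference of 0.88, and the 11 below it one of 1.005. The ranges were 0.57 to 1.13 and 0.53 to 1.36, which overlap. The corresponding sulfur-rich medians were 0.78 over 2 probe sets and 0.90 over 23. Whether bright probe sets understate differences was not tested. Among probe sets with a mean under 12 the high glycine-tyrosine median exceeded the sulfur-rich one by 0.11, against 0.03 over all kept members.

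Promoter sequences were examined because members on 5 chromosomes were higher in the induced arrays, with chromosome medians from 0.61 to 1.21. RefSeq windows on GRCm38.p6, from 250 bases before to 50 bases after the annotated start, were matched for 36 of the 38 genes. The letters TATAAA on the gene's strand occurred in 29 of the 36 windows (80.6%), against 8.32% of all 32851 windows. They occurred in 9 of 13 high glycine-tyrosine windows (69.2%) and 20 of 23 sulfur-rich ones (87.0%). A match whose first base lay 20 to 40 bases before the start was present in 21 of the 36 (58.3%) and in 1.99% of all windows. The stretches below are the 120 bases that end just before the annotated start, for genes with the largest or smallest differences or strong signal in each class. Capitals mark TATAAA and the other letters searched, which are given after them.
Krtap6-3: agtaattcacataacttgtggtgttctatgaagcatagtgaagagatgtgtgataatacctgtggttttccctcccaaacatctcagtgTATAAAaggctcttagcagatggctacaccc
Krtap19-2: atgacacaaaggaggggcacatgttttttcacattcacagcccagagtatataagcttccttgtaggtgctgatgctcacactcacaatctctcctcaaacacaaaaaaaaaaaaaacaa
Krtap8-1: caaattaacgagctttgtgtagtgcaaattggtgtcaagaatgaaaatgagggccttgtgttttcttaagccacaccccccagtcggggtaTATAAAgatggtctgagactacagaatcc
Krtap28-13: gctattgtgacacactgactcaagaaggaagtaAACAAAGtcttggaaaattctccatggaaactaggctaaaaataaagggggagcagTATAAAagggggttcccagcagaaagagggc
Krtap4-16: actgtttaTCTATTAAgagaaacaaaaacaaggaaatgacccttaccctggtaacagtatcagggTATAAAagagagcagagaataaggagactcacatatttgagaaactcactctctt
Krtap15: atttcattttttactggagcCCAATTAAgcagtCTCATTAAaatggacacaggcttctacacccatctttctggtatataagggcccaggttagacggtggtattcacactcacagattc

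These stretches lie at chr16:89083904-89084023 (plus strand, Krtap6-3), chr16:88874270-88874389 (minus, Krtap19-2), chr16:89487953-89488072 (minus, Krtap8-1), chr1:83060810-83060929 (plus, Krtap28-13), chr11:99851606-99851725 (minus, Krtap4-16) and chr16:88828889-88829008 (plus, Krtap15). Counted from the annotated start, TATAAA began at position -31 in Krtap6-3 and Krtap28-13, at -29 in Krtap8-1 and at -55 in Krtap4-16. Krtap19-2 and Krtap15 had no exact TATAAA in their windows. Both stretches hold the related letters TATATAAG, which the search did not count, so a window without a match may still hold another TATA form.

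The other searches used letters recognised by transcription factors of the hair shaft. Those of Lef1, an effector of Wnt signalling in shaft precursors, were CTTTG followed by A or T at both of the next positions, on either strand. They occurred in 15 of 36 Krtap windows (41.7%), against 16.9% of all windows, with 4 of 13 in the high glycine-tyrosine class and 11 of 23 in the sulfur-rich class. Those of Hoxc13, a homeodomain factor of the shaft, were TTTAT or TTAAT, then any base, then A or G at both of the next positions, on either strand. They occurred in 17 of 36 (47.2%) against 18.9%, and in 15 of 36 (41.7%) against 17.1% when matches that overlap TATAAA were left out, with 4 of 13 and 11 of 23 in the classes. Windows of neighbouring genes share ancestry, so the shares are descriptions, and a match is neither a site nor a cause.

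**Figure D4:**
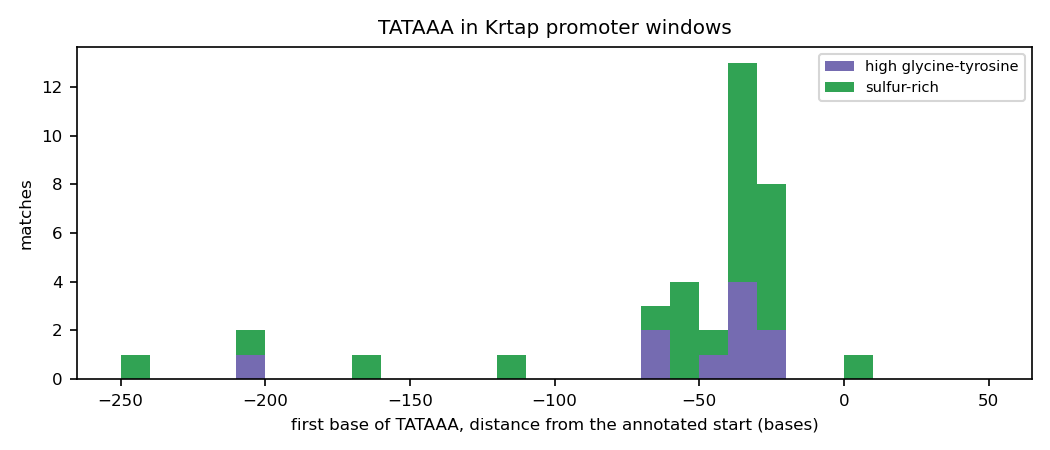
Number of TATAAA matches (vertical axis) by distance of the first base from the annotated start (horizontal axis, bins of 10 bases) in the 36 Krtap promoter windows, stacked by class. Of 36 matches 21 begin between 40 and 20 bases before the start.

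Other genes of the hair follicle give the setting. The induced mean exceeded the control mean for 12 of 12 measured keratins of the cortex and cuticle, which the Krtap proteins embed, and 11 were higher in both (20.9% of all kept probe sets), with a median difference of 0.86. Krt32, a cuticle keratin, differed by 0.84 ± 0.13. All 8 measured genes of the inner root sheath, the sleeve that moulds the shaft, were higher in both, with a median of 0.92 and Krt26 at 1.21 ± 0.16. Of 12 hardening enzymes and shaft partners 7 were higher in both (median 0.41), among them Tchhl1 (1.35 ± 0.16). Of 11 transcription factors 8 were higher in both (median 0.23), among them Foxn1 (0.79 ± 0.11), Msx2 (0.70 ± 0.20) and Hoxc13 (0.88 ± 0.25). Lef1 differed by -0.05 ± 0.19. None of these genes passed limma's threshold over all probe sets in either direction.

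The induced arrays ranked differently for the Krtap genes and the inner root sheath. Induced replicate 1 exceeded induced replicate 2 for 42 of 42 kept probe sets of the Krtap members, but not for all Krtap probe sets shared with other genes. It did so for 8 of 12 cortex and cuticle keratins and 0 of 8 inner root sheath genes, where 47.7% of all kept probe sets did. In the other shaft lists fewer genes had the order of the Krtap genes. Induced replicate 1 was the higher for 3 of 12 hardening enzymes and shaft partners (medians 0.44 and 0.45). For transcription factors it was the higher in 5 of 11 (45.5%), near the share of all kept probe sets. Their medians, 0.28 in induced replicate 1 and 0.22 in induced replicate 2, did have the Krtap order. Relative to the controls the inner root sheath medians were 0.73 in induced replicate 1 and 1.16 in induced replicate 2, against 1.12 and 0.76 for the high glycine-tyrosine class. Krt35, an early cortex keratin, read 7.32, 8.46, 7.53 and 9.58, and Hoxc13 read 5.89, 6.26, 6.59 and 7.31, both higher in induced replicate 2 than in induced replicate 1. Since each difference is between single arrays, no test of it was possible.

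**Figure D5:**
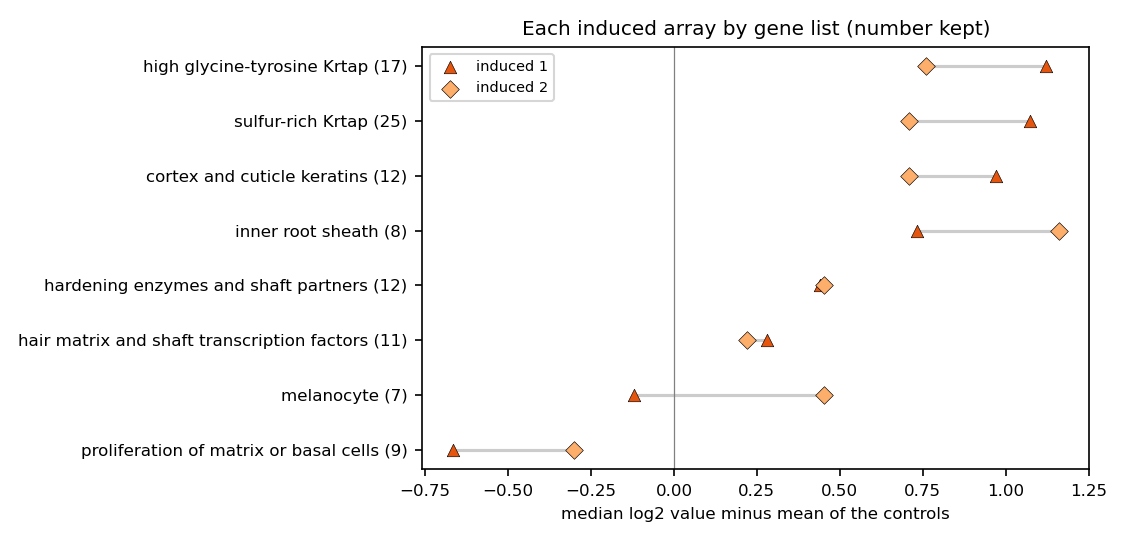
Median log2 value minus the mean of the controls (horizontal axis) for each gene list (rows, number of kept probe sets or genes in brackets), with a triangle for induced replicate 1 and a diamond for induced replicate 2. Krtap classes and cortex keratins are further right in induced replicate 1, inner root sheath and melanocyte genes in induced replicate 2, and proliferation genes lie below 0 in both.

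Markers of other cells and of dividing cells were measured on the same arrays. The induced mean was below the control mean for 9 of 9 measured proliferation genes, with 8 lower in both arrays (18.2% of all kept probe sets) and medians of -0.67 in induced replicate 1 and -0.30 in induced replicate 2, so that the array with the highest Krtap values had the lowest proliferation values. Summed linear signals here are over all measured members of a list, those below the filter included. The sum of the proliferation genes was 9435 to 9910 in the controls against 6335 to 8431 in the induced arrays. All 6 keratinocyte markers were lower in both, by a median of 0.12, with summed signals of 72040 to 72320 and 64760 to 68450. Of 7 melanocyte markers 1 was higher in both, near the 20.9% of all kept probe sets, and their summed signal was 3985 to 4158 in the controls against 3567 to 5446 in the induced arrays. Of 4 red cell markers 3 were on the array and 2 kept, both higher in both induced arrays; the sum over all 3, with Hba-a1 below the filter, was 67.2 to 71.7 and 91.4 to 100.4. Summed signals overlapped between groups for dermal fibroblast markers (386 to 402 and 274 to 484), immune markers (1301 to 1572 and 1181 to 1706) and skeletal muscle markers (204 to 205 and 198 to 233). They did not overlap for dermal papilla (70.2 to 72.0 and 64.2 to 67.5, with Sox2, Corin and Rspo3 below the filter), endothelium (71.3 to 81.5 and 59.0 to 70.8, with Cdh5, Pecam1 and Tie1 below it) and sebaceous gland (2693 to 2769 and 1804 to 2253). The kept endothelial marker, Kdr, overlapped between groups, with log2 values of 5.33 and 5.63 against 5.37 and 5.06. The sebaceous sum is mostly Scd1 (-0.45 ± 0.13), and Mc5r was higher in both induced arrays (0.22 ± 0.10). The part of any of these in the Krtap differences was not tested.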

How the data were processed

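Each of 4 samples was hybridised to 1 biotin-labelled Affymetrix array, as the labels' protocols state. RMA, per the submitters' processing notes, was how the authors made the deposited log2 values; no chip definition is named in the sources used here. RMA equalises the distributions of the arrays and can compress differences at low and very high signal. Control probe sets (AFFX) were left out, and 0 columns of other samples were present.

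Genes were named from the platform annotation, with symbols updated through the RefSeq table of GRCm38 by gene identifier; all members matched. Probe sets were kept where their mean reached the 40th percentile. limma 3.58.1 in R 4.3.3 (lmFit, eBayes, two-sided, Benjamini-Hochberg) was fitted to all 27022 kept probe sets, with 2 residual degrees of freedom. It gave the SE of each difference. The fit was checked on 10 simulated data sets with independent noise drawn from limma's own fitted prior, which does not measure its power on these arrays. Named genes were the brightest of each subfamily and, per class, the 4 largest and 3 smallest differences, each from its brightest kept probe set; other members are given for completeness. Context lists name up to 3 genes by the limma statistic, and Lef1, Krt35 and the keratinocyte markers were added after their values were seen. The members and lists were chosen with earlier results of these data known. A planned description of protein composition was not run, since no protein sequences were used here. Both groups have replicate numbers 1 and 2, which no label ties to a litter, so the fit had no block.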

Additional observations from a re-analysis of the deposited data

How the results depend on the processing

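The median differences of both classes stayed within 1 SD of the replicate spread (0.27 and 0.24) under all 15 alternatives each. Among these, the replicate block, the trend and robust settings and the use of platform symbols could not change the medians. Leaving out 1 array in turn gave 0.76 to 1.13 for the high glycine-tyrosine class, 0.70 to 1.09 for the sulfur-rich class and 0.03 to 0.06 for the difference between them. The induced arrays then lay above the controls for 17 and 23 to 25 probe sets. These counts could not fall, since fewer arrays had to be in order, so they are no check of stability. The share of all kept probe sets under this looser rule was not computed. With 1 value a gene the difference between the class medians was 0.08 (brightest probe set) or 0.07 (mean of probe sets), against 0.03. Leaving out probe sets with a mean log2 value of 12 or more, an alternative chosen after seeing the data, gave 0.11 for the difference between the class medians and 11 high glycine-tyrosine probe sets above both controls, since fewer were counted. Over the whole table limma called 0 probe sets in the other alternatives, 0 to 6 with an array left out (6 without induced replicate 2, when a lone array was taken to vary as much as the other group's pair), and 126 with trend and robust settings; for the last, the cause was not tested. With the replicate number as a block limma called 0, and the medians had to stay at 0.93 and 0.90 because both groups hold both numbers. Deviations of same-numbered arrays were weakly negatively correlated (r = -0.10 over 27022 probe sets), and the crossed pairing as a block, added after seeing the data, called 0. With 2 arrays in a group, replicate spread limits every value. Signal near or below the filter level limits Krtap13, Krtap5-3, Krtap31-1 and the dimmer Krtap6-3 probe set, whose control mean was 4.51.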
